A study of Mus musculus with 24 samples.

Results

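The 8 genes described here form the transcriptional core of the mammalian circadian clock: the activators Arntl, Clock and Npas2 and the repressors Per1, Per2, Per3, Cry1 and Cry2. They were taken by name from the 37621 features of each count table, all 8 were found by gene ID, and all 8 passed the filter on low counts in each comparison. Per1 and Per2, which neuronal activity also induces, are described apart from the other 6.

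In the clock loop, ARNTL (also called BMAL1) pairs with CLOCK, or with its relative NPAS2, binds E-boxes and drives the Per and Cry genes, whose proteins return to the nucleus and inhibit that pair. A second loop through the REV-ERB and ROR nuclear receptors acts on Arntl, and factors that bind D-boxes act on several Per genes. Per1 and Per2 also respond within minutes to calcium and cyclic-AMP signals through CREB, as the immediate-early genes do, and the transcripts of most of these genes vary over the day in brain tissue.

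Poly(A)-selected RNA came from C57BL/6 mice that were either wild type or knockout for the Cdr1as locus, which makes a circular RNA known for binding miR-7 and for pairing with miR-671. Each genotype was sampled in the olfactory bulb, hippocampus, cortex and cerebellum, with 3 libraries for each of the 8 groups and 24 in all. No drug or other treatment is named, and the labels used here give no age, no sex and no hour of sampling. They do not state that the libraries of a group come from separate animals, nor whether equal numbers in different regions mark 1 animal, so p-values measure the spread between these libraries.

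Depth ran from 21.1 to 40.5 M gene counts per library, and the members had 177 (Npas2, in a cerebellum library) to 10407 counts (Per1). The targeted feature, Cdr1asG, lay at 2.23 to 29.0 CPM (counts of a gene scaled to a common library size) in the 12 wild-type libraries and at 0.115 to 1.95 CPM in the 12 knockout libraries, without overlap in any region. Markers of each region were highest in the region of that name: cerebellum markers, for example, averaged 8.58 log2 CPM in wild-type cerebellum and at most 0.93 elsewhere. The olfactory bulb markers averaged 3.18 log2 CPM in wild-type cortex and 1.40 in knockout cortex. Choroid plexus markers, a sign of ventricle lining in the dissected piece, summed to 26.5 to 3357 CPM by library and exceeded 1000 CPM in 5: cerebellum wild-type 1 and 2, cerebellum knockout 2, and hippocampus wild-type 1 and 3.

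Promoter sequences show which clock and activity elements lie next to the members' start sites. RefSeq's table (GRCm38.p6) held 11 promoter entries for 7 of the 8 members (all but Per2), each running from 250 bases before to 50 bases after the first transcribed base. The elements searched, on both strands, were the E-box CACGTG, the E-box variant CACGTT, the D-box TTATGNAA, the full cyclic-AMP element TGACGTCA, its short form TGACG (which the full form contains) and the ROR element core TAGGTCA. Of 32851 promoters of the same length, 7.15% held the E-box, 4.685% the variant, 3.385% the D-box, 1.79% the full cyclic-AMP element, 20.81% its short form and 2.606% the ROR core. Positions below count from the first base of a match to the first transcribed base.

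Per1 is shown in full upstream because its 2 promoters differ in these elements, with matches in capitals. The first (chr11:69098699-69098948, plus strand) holds the short cyclic-AMP form at -246, an E-box at -166 and a D-box at -24, and the second (chr11:69099902-69100151, plus strand) holds the short cyclic-AMP form at -132.
Per1 promoter 1: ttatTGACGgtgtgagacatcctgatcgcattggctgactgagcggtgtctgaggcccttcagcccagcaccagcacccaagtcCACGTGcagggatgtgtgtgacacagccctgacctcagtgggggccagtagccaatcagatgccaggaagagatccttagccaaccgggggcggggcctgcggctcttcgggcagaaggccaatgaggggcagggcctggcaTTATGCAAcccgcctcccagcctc
Per1 promoter 2: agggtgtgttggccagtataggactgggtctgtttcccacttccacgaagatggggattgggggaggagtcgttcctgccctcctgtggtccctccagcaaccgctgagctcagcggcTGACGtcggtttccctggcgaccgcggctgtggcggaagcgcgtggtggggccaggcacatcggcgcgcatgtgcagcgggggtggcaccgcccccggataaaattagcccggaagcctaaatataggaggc

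For the other members 30-base windows around the matches are enough to compare them. Per3 held D-boxes at -205 (chr4:151044852-151044881, minus strand) and -158 (chr4:151044805-151044834, minus strand). Cry1 held an E-box at -60 (chr10:85185097-85185126, minus strand), a variant at -79 (chr10:85185116-85185145, minus strand) and the short cyclic-AMP form at -8. Cry2 held a variant at -166 (chr2:92434218-92434247, minus strand) and the short cyclic-AMP form at -209. Arntl's second promoter held the ROR core 30 bases after its first transcribed base (chr7:113207529-113207558, plus strand), and the entries of Clock and Npas2 held none of these letters.
Per3 D-box, distal: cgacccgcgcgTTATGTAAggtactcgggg
Per3 D-box, proximal: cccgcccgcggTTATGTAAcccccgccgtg
Cry1 E-box: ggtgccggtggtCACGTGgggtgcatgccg
Cry1 E-box variant: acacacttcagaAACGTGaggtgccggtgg
Cry2 E-box variant: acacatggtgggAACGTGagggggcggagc
Arntl ROR core: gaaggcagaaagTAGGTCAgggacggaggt

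The microRNAs tied to Cdr1as are shown with their seed, bases 2 to 8, in capitals, beside the matching sites of members, whose 7 site letters are in capitals. A site was either the letters that pair with that seed, or those that pair with bases 2 to 7 before an A. Members and genes of similar length were counted alike. The site for the miR-7 seed occurred 1 time in the 3′ UTR of Per3 and 1 time in that of Cry2, and in no other member, Per1 and Per2 included. Of genes with 3′ UTRs of similar length, 37.78% held such a site for Per3 and 37.29% for Cry2. The 6831-base 3′ UTR of Clock held none, against 72.88% of 483 genes of similar length. The site for the miR-671-5p seed occurred 2 times in Cry2 and in no other member, and 28.74% of genes with a 3′ UTR of similar length to that of Cry2 held one.
mmu-miR-7a-5p: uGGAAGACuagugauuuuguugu
mmu-miR-7b-5p: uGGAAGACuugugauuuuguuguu
mmu-miR-671-5p: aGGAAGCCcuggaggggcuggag
Per3 miR-7 site: attgacattaagGTCTTCCctggctttgtt
Cry2 miR-7 site: gcacctgagcaaGTCTTCCttctaccccgt

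Did loss of Cdr1as change the core clock genes? Averaged over the 4 regions, 3 of the 8 members rose in the knockout, Per1, Per2 and Arntl, and none fell. Per1 rose 1.73-fold, Per2 1.28-fold and Arntl 1.12-fold. The hour of sampling is not given, and its part in these and the other clock-gene differences below was not tested. Of all 17266 genes tested on the 24 libraries with edgeR's quasi-likelihood test, 462 passed an adjusted p (Benjamini-Hochberg) of 0.05, which is 2.68%. The median log2 difference of the 8 members was 0.13, against -0.0012 over all genes tested, with 6 members higher and 2 lower. This test takes the 24 libraries as independent: with equal numbers averaged over the regions to 3 values per genotype, 0 of all genes passed, and adjusted p was 0.398 for Per1, 0.628 for Per2 and 0.716 for Arntl.

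**Figure D1:**
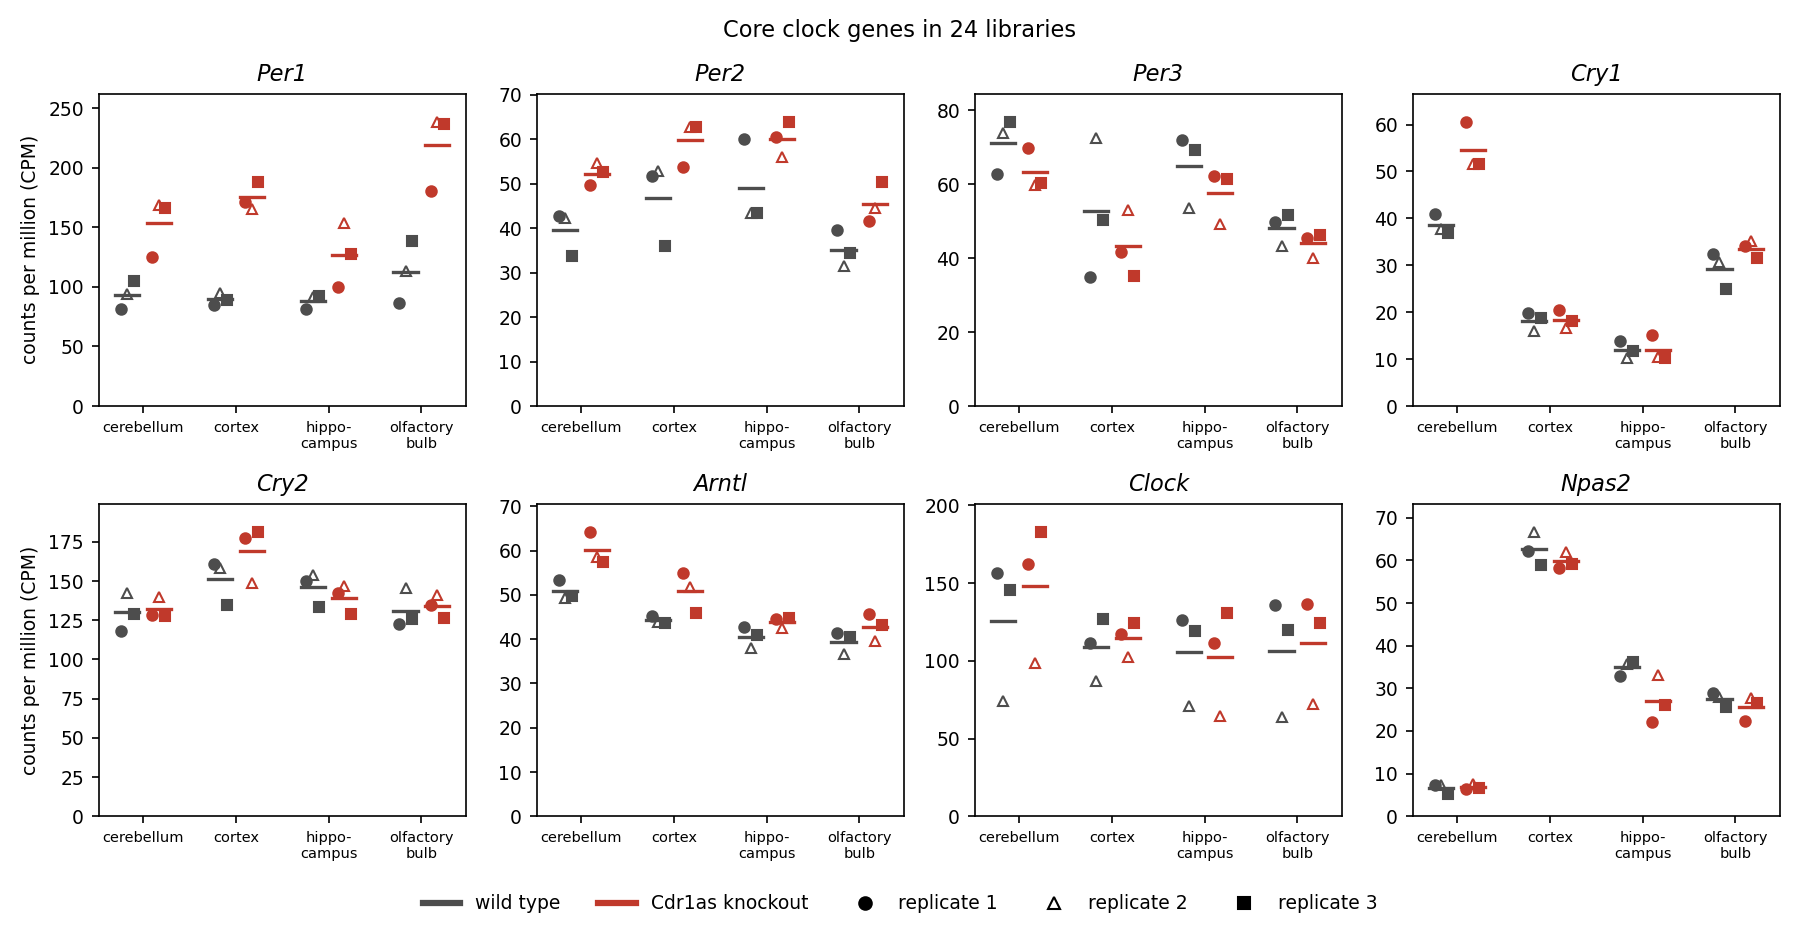
Level of each core clock gene in 24 libraries, in CPM (linear axis from 0), by region and genotype, with each point 1 library, its shape the replicate number and each bar the mean of 3 libraries. Per1 knockout libraries lie above all wild-type libraries in every region, while Clock is lowest in replicate 2 of every group.

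Per1 encodes the PERIOD protein whose gene responds rapidly to light in the central clock and to neuronal activity. In the cerebellum its wild-type libraries 1, 2 and 3 stood at 81.1, 94.0 and 105 CPM, and the knockout libraries at 125, 169 and 166 CPM. In the cortex they stood at 84.6, 94.8 and 89.2 CPM against 172, 165 and 189 CPM. The knockout was higher without overlap in both regions, by the widest margin in the cortex.

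Hippocampal Per1 stood at 81.2, 91.6 and 92.0 CPM in wild type and at 99.8, 154 and 128 CPM in the knockout. In the olfactory bulb it stood at 86.7, 113 and 139 CPM in wild type and at 181, 239 and 237 CPM in the knockout. The groups did not overlap here either, so that all 12 knockout libraries exceeded the wild-type library of equal number. The share of all genes whose groups do not overlap was not counted, for Per1 or for the genes below. The log2 difference of Per1 was 0.79 (SE 0.084) averaged over regions, with an edgeR adjusted p of 2.64e-05, which ranked 6 among all genes by p. By region it was 0.71 (SE 0.15) in the cerebellum, 0.96 (SE 0.087) in the cortex, 0.52 (SE 0.15) in the hippocampus and 0.94 (SE 0.20) in the olfactory bulb.

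Only the cortex value of Per1 passed within a region (edgeR adjusted p = 0.0262, the smallest p of 15834 genes, of which 6 or 0.0379% passed). Without 1 library the log2 difference was 0.91 to 1.02, but the call ended without wild-type 3 (adjusted p = 0.192), knockout 1 (0.155), knockout 2 (0.0582) or knockout 3 (0.150), and with library totals as scaling (0.94, adjusted p = 0.0542). In the olfactory bulb Per1 passed in the edgeR fit with the replicate number as a block (0.95, adjusted p = 0.00260). It did not pass without the block (adjusted p = 0.739). That block rests on a shared number only: deviations of equal numbers correlated at 0.121 to 0.592 there, and those of unequal numbers at up to 0.292.

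Per2 encodes a second PERIOD protein, a repressor needed for stable daily rhythms. Its cerebellar libraries 1, 2 and 3 stood at 42.7, 42.3 and 33.8 CPM in wild type and at 49.7, 54.5 and 52.5 CPM in the knockout. Its cortical libraries stood at 51.7, 52.9 and 36.0 CPM in wild type and at 53.8, 62.7 and 62.8 CPM in the knockout. The groups did not overlap, although in the cortex the gap between the highest wild-type and the lowest knockout library was small and wild-type 3 stood far below the others.

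Hippocampal Per2 stood at 60.1, 43.3 and 43.3 CPM in wild type and at 60.4, 56.0 and 63.9 CPM in the knockout. In the olfactory bulb it stood at 39.7, 31.4 and 34.4 CPM against 41.7, 44.6 and 50.3 CPM. The groups overlapped in the hippocampus, where wild-type 1 reached the knockout range, and not in the bulb. The log2 difference over regions was 0.36 (SE 0.073, edgeR adjusted p = 0.00918), and the knockout library was higher in 12 of 12 pairs of equal number. Here and below such counts match libraries by number only and are a description. By region the log2 difference was 0.40 (cerebellum), 0.34 (cortex), 0.29 (hippocampus) and 0.36 (bulb), and none of these passed within its region.

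Arntl, the activator that the loop cannot run without, rose by less and with a narrow spread. Its cerebellar libraries stood at 53.5, 49.2 and 49.8 CPM in wild type and at 64.2, 58.6 and 57.4 CPM in the knockout. Its cortical libraries stood at 45.3, 43.8 and 43.7 CPM in wild type and at 55.0, 51.9 and 45.9 CPM in the knockout. Neither region overlapped. In the hippocampus (38.1 to 42.7 against 42.6 to 44.9 CPM) and the bulb (36.6 to 41.3 against 39.7 to 45.6 CPM) the groups did overlap, with the knockout higher in every pair of equal number. The log2 difference over regions was 0.17 (SE 0.038, edgeR adjusted p = 0.0194).

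The 3 calls averaged over regions held in each of the 24 runs that left out 1 library, with highest adjusted p of 0.000109 for Per1, 0.0215 for Per2 and 0.0396 for Arntl. Bulb markers differed between the genotypes in the cortex (above), and their part in these values was not tested. Without the cortex Per1 (edgeR adjusted p = 0.00339) and Per2 (0.0269) passed and Arntl did not (0.16, 0.0886). Neither Arntl (0.16, 0.141) nor Per2 (0.35, 0.104) passed without the libraries numbered 2. Hippocampal choroid plexus markers summed to 40.8 to 3357 CPM in wild type, where libraries 1 and 3 exceeded 1000, and to 39.0 to 50.2 in the knockout. The lowest wild-type library thus lay within the knockout range. In the cerebellum the sums were 33.0 to 2420 CPM in wild type and 382 to 1334 in the knockout. Over regions 10 of 10 markers were lower in the knockout (median log2 -1.50), and 1 passed in edgeR. Without the 5 libraries above 1000 CPM, Per1 (0.72, adjusted p = 0.0139) and Per2 (0.45, 0.0278) passed and Arntl (0.20, 0.120) did not. In bulk tissue fewer cells of a type and less RNA per cell cannot be told apart.

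**Figure D2:**
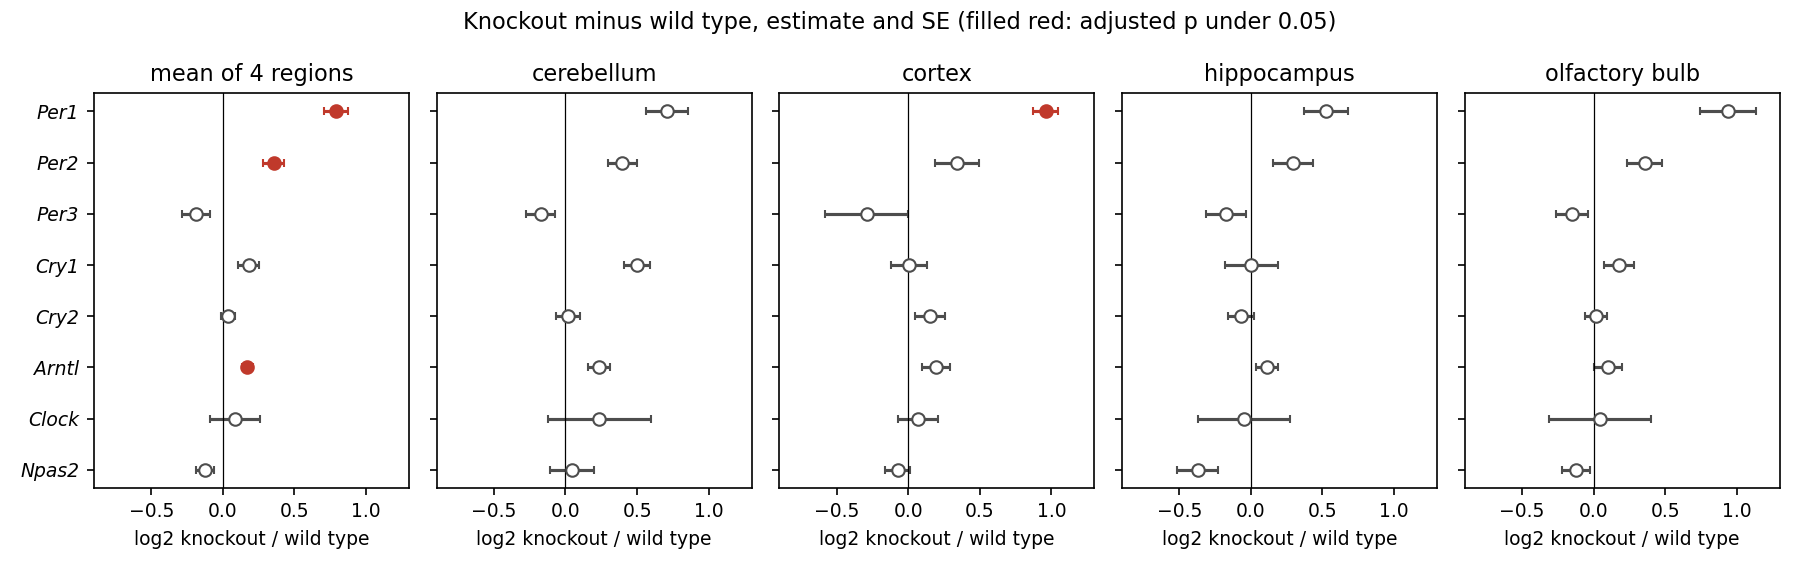
Knockout minus wild type for the 8 members as log2 difference (x axis) with its standard error, for the mean over 4 regions and for each region. Filled red points passed an adjusted p of 0.05: Per1, Per2 and Arntl in the mean, and Per1 in the cortex.

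Per3, the PERIOD gene least needed for a running clock, was lower in 10 of 12 knockout libraries than in the wild-type library of equal number. Its groups overlapped in every region, the cortex having the widest spread, with wild type at 34.8, 72.6 and 50.4 CPM and the knockout at 41.6, 53.1 and 35.2 CPM. The log2 difference over regions was -0.19 (SE 0.097, edgeR adjusted p = 0.406). By region it was -0.17 (cerebellum), -0.29 (cortex), -0.17 (hippocampus) and -0.15 (bulb). The cortical value was 0.027 without wild-type 2.

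Per1 and Per3 thus stood further apart in the knockout. Per kilobase of exon, Per1 was 2.24-fold the level of Per3 in wild-type cerebellum and 4.11-fold in the knockout. In the cortex the ratio was 3.03 against 6.99, in the hippocampus 2.34 against 3.73, and in the bulb 3.93 against 8.44. These ratios restate the differences of both genes and were not tested on their own. Their size depends on the length used: per kilobase of the longest transcript, wild-type cerebellum had 20.0 CPM of Per1 and 11.9 of Per3.

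Cry1, the stronger of the CRYPTOCHROME repressors, differed mainly in the cerebellum. There its wild-type libraries 1, 2 and 3 stood at 41.0, 37.7 and 36.9 CPM and the knockout libraries at 60.6, 51.5 and 51.6 CPM, with no overlap. The log2 difference was 0.50 (SE 0.091) with an unadjusted p of 0.000683, rank 20 of the region, and did not pass in edgeR (adjusted p = 0.499), while DESeq2 called it (0.50, adjusted p = 0.00472). In the other regions the groups overlapped and log2 was 0.0077 in the cortex, 0.0045 in the hippocampus and 0.18 in the bulb. Averaged over regions it was 0.18 (SE 0.072, edgeR adjusted p = 0.229), with the knockout higher in 10 of 12 pairs. A test of whether the Cry1 difference itself varied between regions did not pass (unadjusted p = 0.0766, adjusted p = 1).

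Cry2, the other CRYPTOCHROME, ranged from 118 to 181 CPM over the 24 libraries, with overlap in every region and the knockout higher in 5 of 12 pairs. Its log2 difference over regions was 0.038 (SE 0.049, adjusted p = 0.837 in edgeR). Npas2, the forebrain partner of ARNTL, was lower in 8 of 12 knockout libraries than in the wild-type library of equal number, with a log2 difference of -0.12 (SE 0.065, edgeR adjusted p = 0.416). Its largest difference lay in the hippocampus, at 32.9, 35.7 and 36.3 CPM in wild type and 22.2, 33.0 and 26.0 CPM in the knockout (-0.37, SE 0.14, edgeR adjusted p = 0.956). There the highest knockout library barely passed the lowest wild-type library.

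Clock, the histone acetyltransferase partner of ARNTL, had the largest standard error of the 8: its log2 difference over regions was 0.084 (SE 0.17, edgeR adjusted p = 0.924). Library number 2 was the lowest of its group in all 8 groups. In the cerebellum wild-type libraries 1, 2 and 3 stood at 156, 74.4 and 145 CPM and the knockout libraries at 163, 98.6 and 183 CPM. In the bulb they stood at 136, 63.6 and 120 CPM against 137, 72.4 and 125 CPM. Number 2 was thus low in both genotypes, and without the libraries numbered 2 the log2 difference was 0.056 (edgeR adjusted p = 0.695).

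Number 2 of Clock lay below the mean log2 level of numbers 1 and 3 by a median of -0.83 over the groups, with a range of -1.02 to -0.24. Over all genes tested this measure was lower for long genes, and its part in the Clock values was not tested. Genes whose longest annotated transcript exceeds 8 kb had a median of -0.36, and 86.6% of these 910 genes were lower in number 2. The median was -0.14 at 6 to 8 kb, 0.0050 at 4 to 6 kb, 0.057 at 2 to 4 kb and 0.033 under 2 kb. Clock, with 9744 bases, is the one member over 8 kb, and 2.57% of all genes had a lower mean than it. Npas2 lay higher in number 2 in 8 of 8 groups (median 0.16), and the medians of the others lay between -0.16 and 0.12.

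**Figure D3:**
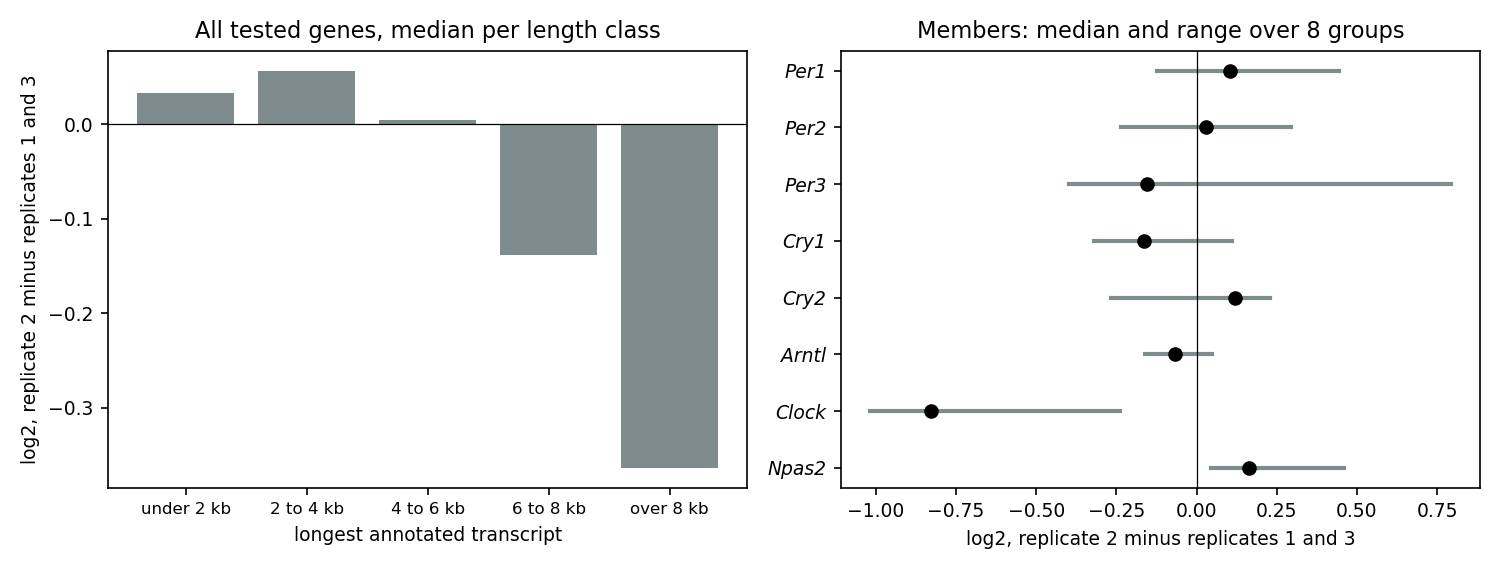
Log2 level of replicate 2 minus the mean of replicates 1 and 3, as the median over all tested genes by length of the longest annotated transcript (left, bars) and for each member as the median (point) and range (line) over 8 groups (right). Genes over 8 kb are lower in replicate 2 by a median of 0.364, and Clock is lower in all 8 groups.

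Within single regions 1 member in 1 region, Per1 in the cortex, passed. In the cerebellum 0% of 15723 genes passed in edgeR, while 862 had an unadjusted p under 0.05 and DESeq2 called 50. The same 0% held in the hippocampus (804 unadjusted, 37 by DESeq2) and in the olfactory bulb (859 unadjusted, 66 by DESeq2). Members with an unadjusted p under 0.05 numbered 4 of 8 in the cerebellum (Per1, Per2, Cry1 and Arntl) and 1 in the cortex (Per1). They numbered 2 in the hippocampus (Per1 and Npas2) and 2 in the bulb (Per1 and Per2). Of all genes tested, 5.48% had such a p in the cerebellum, 4.2% in the cortex, 5.16% in the hippocampus and 5.33% in the bulb. The test of whether the knockout difference varied between regions passed for 0 of 8 members, where 4 of all genes (0.0232%) passed in edgeR and 40 in DESeq2. At an unadjusted p under 0.05 there were 0 of 8 members and 439 of all genes (2.54%), so that a count of 0 among 8 is near the background. The smallest unadjusted p were 0.0766 for Cry1, 0.177 for Npas2 and 0.217 for Per1.

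Where in the brain did each member stand highest without the knockout? Npas2, Cry1 and Arntl differed between wild-type regions when all 4 were tested together, and the other 5 members did not pass. Of all 16729 genes tested on the 12 wild-type libraries 67.8% passed the same test. Npas2 varied most, 9.49-fold from cortex to cerebellum, Cry1 3.24-fold and Arntl 1.29-fold by their mean CPM.

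Npas2 in wild type was 62.6 ± 3.88 CPM in the cortex, 35.0 ± 1.80 in the hippocampus, 27.5 ± 1.66 in the olfactory bulb and 6.59 ± 1.136 in the cerebellum (SD, n = 3 each). No neighbours in that order overlapped. The edgeR adjusted p over all 4 regions was 7.71e-09. The knockout had the same order, with hippocampus and bulb overlapping.

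Cry1 had a different order: the cerebellum at 38.5 ± 2.15 CPM came first, then the bulb at 29.3 ± 3.96, the cortex at 18.2 ± 1.999 and the hippocampus at 11.9 ± 1.81 (SD, n = 3 each), with no overlap between neighbours and an edgeR adjusted p of 2.19e-06 over all regions. The order and the separation were the same in the knockout, where the cerebellum reached 54.6 ± 5.19 CPM. Cry2 lay between 130 ± 12.1 CPM (SD, cerebellum) and 151 ± 14.5 CPM (SD, cortex) in wild type. Per kilobase of exon, wild-type Cry2 exceeded Cry1 by 6.53-fold in the hippocampus, by 4.40-fold in the cortex, by 2.37-fold in the bulb and by 1.78-fold in the cerebellum. These sizes depend on the length used: per kilobase of the longest transcript the wild-type hippocampus had 36.7 CPM of Cry2 and 3.92 of Cry1.

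Arntl was 50.8 ± 2.31 CPM in the cerebellum and 44.3 ± 0.925 in the cortex, which did not overlap, and 40.6 ± 2.37 in the hippocampus and 39.5 ± 2.49 in the bulb, which did (SD, n = 3 each). Its edgeR adjusted p over all regions was 0.00595. Clock, by contrast, lay between 106 and 125 CPM on average in every wild-type region, with overlap throughout (adjusted p = 0.885 in edgeR). Per kilobase of exon, Npas2 exceeded Clock 1.67-fold in the wild-type cortex and on average was about equal to it in the hippocampus (ratio 0.979). Hippocampal wild-type libraries 1, 2 and 3 differed, at log2 ratios of -0.42, 0.53 and -0.20. Per kilobase of the longest transcript, Npas2 was below Clock in the wild-type hippocampus, at 8.26 against 10.8 CPM. In the wild-type cerebellum Npas2 was lower than Clock by 6.37-fold per kilobase of exon.

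In the PERIOD genes each neighbour in the order of wild-type regions overlapped. Per1 was highest in the bulb (113 ± 25.9 CPM, SD) and lowest in the hippocampus (88.2 ± 6.14 CPM). Per2 was highest in the hippocampus (48.9 ± 9.65 CPM) and lowest in the bulb (35.1 ± 4.20 CPM). Per3 was highest in the cerebellum (71.1 ± 7.35 CPM) and lowest in the bulb (48.2 ± 4.46 CPM). The edgeR test over all regions gave an adjusted p of 0.145 for Per1, 0.0936 for Per2 and 0.113 for Per3. These passed without single libraries: Per1 without bulb wild-type 1 (0.0149), Per2 without cortex wild-type 3 (0.0267), and Per3 without cortex wild-type 1 (0.0370) or 2 (0.00741). With library totals as scaling Per1 passed too (0.0414).

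**Figure D4:**
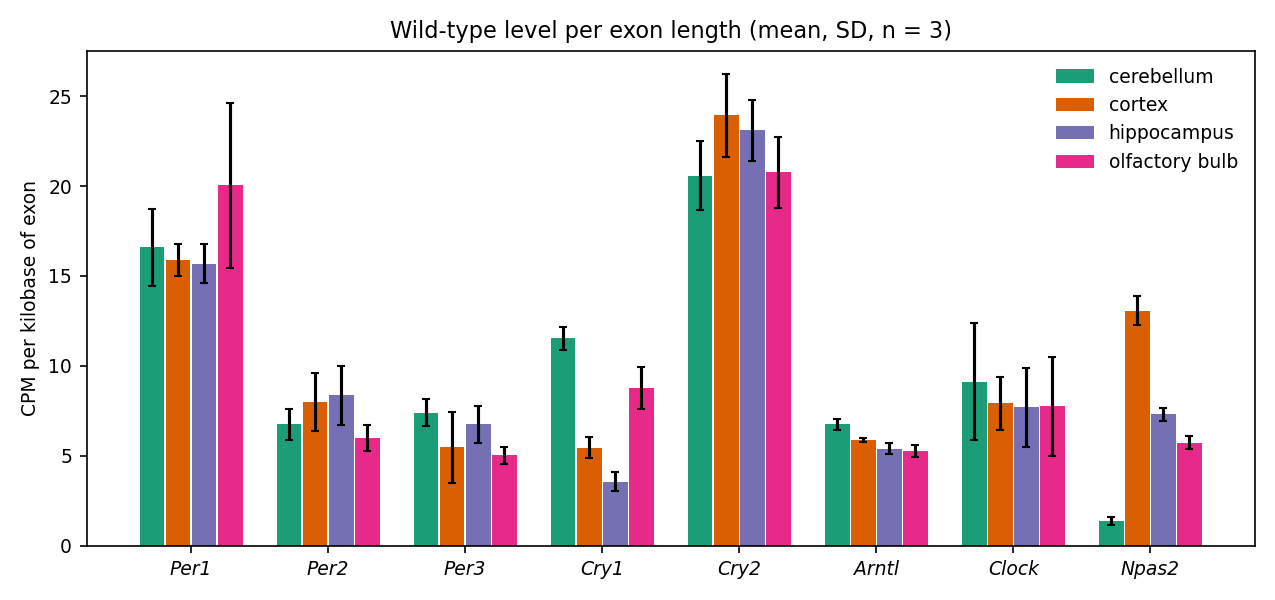
Wild-type level of the 8 members in CPM per kilobase of exon (y axis, from 0), with bars the mean and error bars the SD of 3 libraries in each of 4 regions. Npas2 is lowest in the cerebellum and highest in the cortex, Cry1 is highest in the cerebellum and lowest in the hippocampus, and for Cry2 and Clock each region overlaps the next in order.

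Between pairs of regions, 2 members passed for cerebellum against cortex, Npas2 and Cry1, where 53.7% of all genes passed. Against the hippocampus (49%) and the bulb (46.4%) the cerebellum differed in Npas2, Cry1 and Arntl. Cortex and hippocampus differed in Npas2 and Cry1, where 13.5% of genes passed, and cortex and bulb in the same 2 genes, where 44.3% passed. Hippocampus and bulb differed in Npas2, Cry1 and Per2 (log2 0.48, edgeR adjusted p = 0.0486), where 40.9% passed.

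The closest of these calls rested on single libraries. Per2 between hippocampus and bulb ended without cerebellum wild-type 1 (adjusted p = 0.0563) or 2 (0.0583), hippocampus wild-type 1 (0.188), or bulb wild-type 2 (0.144) or 3 (0.117). Npas2 between them (log2 0.35, edgeR adjusted p = 0.0322) ended without hippocampus wild-type 2 (0.0704) or 3 (0.0666), or bulb wild-type 2 (0.0583) or 3 (0.114). Cry1 between cerebellum and bulb (0.39, adjusted p = 0.0304 in edgeR) ended without cerebellum wild-type 1 (0.0887) or 2 (0.0550), or bulb wild-type 3 (0.128). With library totals as scaling these 3 did not pass (adjusted p of 0.126, 0.214 and 0.0740).

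The members' partners in the wider clock were read from lists chosen with earlier results of these data known. Of 12 feedback and output factors 4 passed in the mean over regions, where 2.68% of all genes passed. Nfil3, the D-box repressor, rose (0.65, SE 0.071, edgeR adjusted p = 3.11e-05) and Bhlhe40, an E-box repressor, rose (0.22, adjusted p = 0.0313). The mean of Bhlhe40 joins opposite regions: it was lower in the knockout cerebellum (79.2 to 84.3 against 94.5 to 98.1 CPM) and higher in the knockout cortex (154 to 201 against 96.9 to 129 CPM), without overlap in either. The test of that difference between regions did not pass in edgeR (unadjusted p = 3.05e-05, adjusted p = 0.0753). Dbp, the D-box activator and a direct E-box target, fell (-0.63, SE 0.075, adjusted p = 5.83e-05), as did Bhlhe41, the relative of Bhlhe40 (-0.22, adjusted p = 0.0173). The list's median was -0.025, with 6 members higher and 6 lower.

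Dbp is a D-box factor of the kind that binds the letters shown for Per1 and Per3. In the cerebellum its wild-type libraries 1, 2 and 3 stood at 76.0, 107 and 87.7 CPM and its knockout libraries at 54.7, 50.3 and 53.1 CPM. In the cortex they stood at 67.2, 96.7 and 80.8 CPM against 58.5, 56.4 and 54.0 CPM. The hippocampus (47.7 to 63.8 against 35.8 to 38.8 CPM) and bulb (50.7 to 73.4 against 33.2 to 40.3 CPM) did not overlap either. Dbp was thus lower in every knockout library of each region, where Per1 was higher.

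Nfil3 was the reverse of Dbp in direction. It ran from 17.2 to 18.1 CPM in wild-type cerebellum and from 25.4 to 29.6 CPM in the knockout. It ran from 10.01 to 12.4 against 15.1 to 18.7 CPM in the cortex, from 9.31 to 12.5 against 14.9 to 16.4 CPM in the hippocampus, and from 21.5 to 32.9 against 40.3 to 49.1 CPM in the bulb. No region overlapped. The REV-ERB genes, repressors of Arntl, did not pass: Nr1d1 was at -0.22 (edgeR adjusted p = 0.351) and Nr1d2 at -0.18 (0.0638). Ciart, a further repressor of the loop, was at -0.33 (0.0845).

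**Figure D5:**
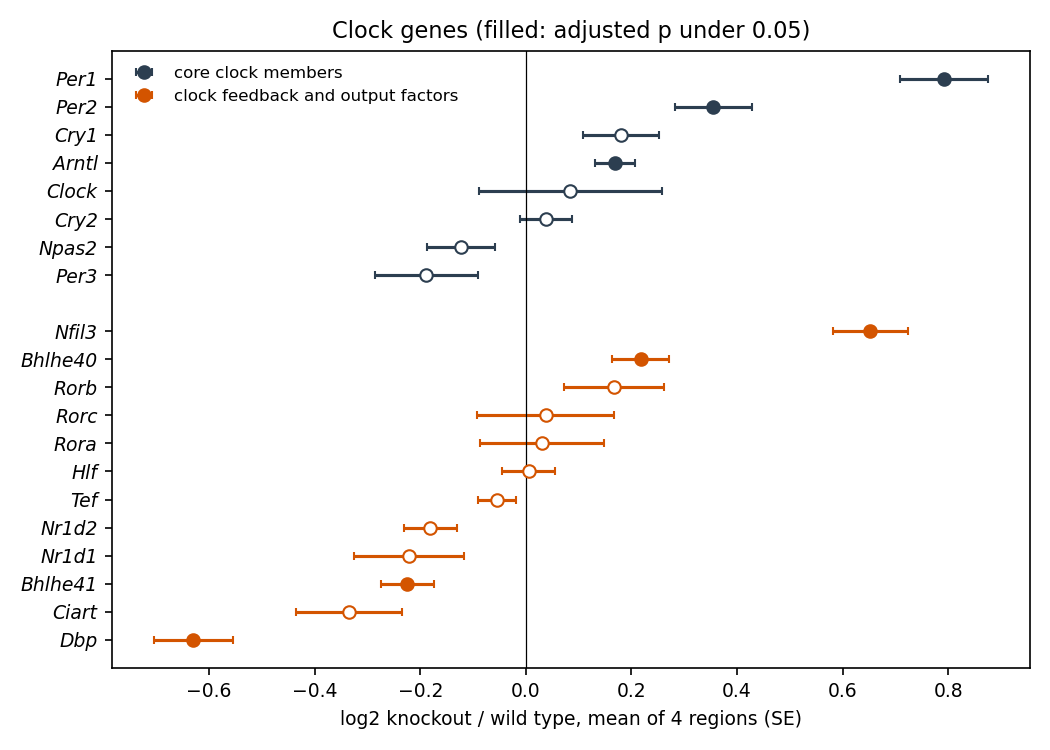
Log2 difference of knockout and wild type averaged over 4 regions (x axis, bars are standard errors) for the 8 members and 12 feedback and output factors. Filled points passed an adjusted p of 0.05: Per1, Per2, Arntl, Nfil3 and Bhlhe40 to the right of 0, and Bhlhe41 and Dbp to the left.

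Of the 15 kinases, ligases and partners of clock proteins 0 passed in edgeR. An unadjusted p under 0.05 was found for 2 of them and for 14% of all genes. The 2 were Csnk1d, a casein kinase that phosphorylates PERIOD proteins (0.11, adjusted p = 0.105), and Rai1 (0.15, 0.251). Of 11 genes of the CREB pathway 1 rose, Sik1, a kinase that restrains CREB coactivators (0.92, adjusted p = 0.000398), which is also on the immediate-early list. Of the 11 genes 10 were higher and 1 lower, with a median of 0.13.

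The immediate-early genes, among which Per1 and Per2 are often counted, rose in most cases. Of the 22 listed, 19 passed upward and 0 fell, where 2.68% of all genes passed in either direction. All 22 were higher and the median was 1.03. The 12 with the smallest p were Atf3 (1.32), Nfil3 (0.65), Nr4a3 (1.52), Fosl2 (1.15), Nr4a2 (1.09), Klf4 (0.93), Fosb (1.56), Gadd45b (0.59), Fos (1.95), Sik1 (0.92), Egr4 (1.13) and Npas4 (1.55), as log2 differences. The Per1 difference of 0.79 lay below that median and the Per2 difference of 0.36 below every one of these 12. Nfil3 is also on the list of feedback and output factors.

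Glucocorticoid-response and heat-shock genes were counted in the same way, beside the same 2.68% of all genes. Of 12 glucocorticoid-response genes Pdk4 (0.47) and Errfi1 (0.43) rose and the metallothioneins Mt2 (-0.44) and Mt1 (-0.27) fell. Of these 12 genes 9 were higher and 3 lower, with a median of 0.13. Of 11 heat-shock and temperature genes 1 passed, Dnajb1, a co-chaperone (0.51, adjusted p = 0.0221), and 6 were higher and 5 lower, with a median of 0.12.

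Which genes followed each member across the 24 libraries? The measure was Pearson's r of log2 CPM after subtracting each region's mean, over 14104 genes, so that differences between regions are removed and those of genotype remain. Libraries of 1 region share that mean, and r is a description. Per1 was most like Nr4a1 (0.94), Mcl1 (0.93) and Fos (0.93), and after subtracting each group's mean, which removes genotype too, these were at 0.89, 0.72 and 0.86. Fos ran from 10.8 to 26.6 CPM in wild-type cerebellum and from 49.4 to 116 CPM in the knockout, and in the bulb from 16.8 to 63.6 and from 80.9 to 171 CPM. Per1 thus varied with Nr4a1, Mcl1 and Fos within groups as well as between genotypes, but these were picked for their high r. No r is given here for the other listed immediate-early genes.

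Per2 had other neighbours: Banp (0.90), Myh9 (0.89) and Arhgap39 (0.87). Arntl was most like Scaf8 (0.86), Zcchc2 (0.84) and Nr3c2 (0.82), Per3 most like Ganc (0.90), Ints2 (0.88) and Dclre1c (0.86), and Cry2 most like Ap3m2 (0.87), Furin (0.87) and Nfix (0.86). Cry1 had the weakest likeness, Lap3 (0.75), Fermt2 (0.73) and Ankrd40 (0.71), beside Npas2 with Tctn2 (0.82), Nxph4 (0.81) and Cep41 (0.79). Clock had the strongest, Zfp292, Trim33 and Akap10, each at 0.98 on this scale and at 0.99, 0.98 and 0.99 within groups. Clock was lower in the libraries numbered 2 in 8 of 8 groups (above), and the part of this in its r was not tested. None of the 24 neighbours named for the 8 members is itself a member.

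Among the 28 pairs of members the highest r was that of Per2 and Arntl (0.66) and the lowest that of Cry2 and Clock (-0.55). Per1 and Per2 were at 0.63 with genotype left in and at -0.20 within groups. Within groups the highest was Arntl with Clock (0.58) and the lowest Per1 with Cry1 (-0.73). The members therefore did not vary as 1 block across libraries of a group. The libraries numbered 2 lay below the mean log2 level of the others of their group in 8 of 8 groups for Clock. They did so in 7 groups for Arntl, 6 for Cry1, 4 for Per2 and 1 each for Per1 and Cry2. The part of library number in these r was not tested.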

How the data were processed

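Poly(A) RNA was sequenced from 24 libraries (4 regions, 2 genotypes, 3 per group). The authors deposited 1 table of whole-number read counts, not normalized, for each library. The submitters' processing notes name bcl2fastq 2.17.1.14, the aligner STAR 2.5.1b, the counter HTSeq 0.6.1p1 and the build mm9. The kit kept the strand, per the labels' protocols. The strand setting of the counting is not given in the sources used here, and genes that overlap on opposite strands are therefore uncertain. Each table has 37626 lines, of which 5 are summaries kept out of library sizes and tests (8.22% to 16.8% of reads in no feature, 0.576% to 0.764% ambiguous, 10.3% to 13.5% not unique). Replicate pairs of a group differed beyond sampling noise (chi-square per degree of freedom 6.61 to 56.1 over 24 pairs).

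Counts were tested in R 4.3.3 with edgeR 4.0.16 (filterByExpr, TMM factors, glmQLFit with robust=TRUE, quasi-likelihood F test), with Benjamini-Hochberg adjustment over all genes of a comparison, an adjusted p under 0.05 being a call. Alternatives used DESeq2 1.42.0, limma 3.58.1, other scaling, no filter, a replicate block and left-out libraries. The method was tested on simulated data with independent libraries, which does not test it for libraries that vary together. CPM use TMM factors over 24 libraries. Lengths and 3′ UTRs come from a GENCODE annotation of GRCm38 and promoters and microRNAs from RefSeq, matched by ID or symbol, since the counts were made on mm9.

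Members and lists were chosen with earlier results of these data known. All 8 members are named, and of the lists those that passed in the mean (up to 12 by smallest p) or, with none, the 2 smallest p. Other list genes with values, Dbp and Fos by library, Bhlhe40 in 2 regions, Nr1d1, Nr1d2 and Ciart, were chosen after their values were seen. The 3 genes most like a member are those with the highest r at a mean of at least 1 CPM.

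Pairing was checked as the correlation over genes of deviations from group means. Between genotypes, equal numbers had an r of 0.197 to 0.440 (cerebellum), 0.203 to 0.414 (hippocampus) and 0.121 to 0.592 (olfactory bulb). Unequal numbers reached 0.136 (cerebellum), 0.193 (hippocampus) and 0.292 (olfactory bulb). Equal numbers thus lay above unequal ones in the cerebellum and, by a narrow margin, in the hippocampus. In the bulb they did not, since unequal numbers exceeded the lowest equal one. In the cortex r was -0.081 to 0.483 for equal and up to 0.281 for unequal numbers, so they did not there either. The main tests took no numbers as pairs in any region. The highest r of each region was that of the libraries numbered 2.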

Additional observations from a re-analysis of the deposited data

How the results depend on the processing

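Averaged over regions, 462 genes and 3 members passed. Genes numbered 790 with DESeq2, 1256 with the replicate block, 200 without the libraries numbered 2 (1 member), 217 without the cortex, 99 without the choroid-plexus-rich libraries (chosen after seeing the data), 108 with voom and correlated libraries (1 member, Per1), 0 averaged over the regions (0 members) and 151 when that had a replicate block (1 member, chosen after seeing the data). Cry1 passed in the block fit (0.18, edgeR adjusted p = 0.0113), and Per2 did not pass with voom (0.37, 0.0594). Cry2 was -0.0019 without the cortex.

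In the cerebellum the 0 genes and 0 members became 50 and 2 (Per1, Cry1) with DESeq2, 1 gene with no filter and 3 with the replicate block. In the cortex 6 genes became 102 with DESeq2, 0 (and 0 members) with library totals, 28 with no filter and 110 with the block. In the hippocampus 0 became 37 with DESeq2, 1 with no filter, 15 with the block and 99 without number 2. In the bulb 0 became 66 with DESeq2 (1 member, Per1), 2 with no filter, 57 with the block (1 member) and 1 without number 2. Cortical Cry1 was -0.010 with library totals and -0.011 without number 2, and hippocampal Cry1 was -0.0021 with the block and -0.00089 without number 2. The test of the difference between regions went from 4 genes to 40 with DESeq2 and 11 with the block.

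Members differing over wild-type regions rose from 3 to 5 with the replicate block, which added Per1 (edgeR adjusted p = 0.0289) and Per2 (0.0173). Those for cerebellum against cortex rose from 2 to 4 with the block and without number 2, and those for cortex against bulb from 2 to 6 with the block. Those for hippocampus against bulb fell from 3 to 1 without number 2, a choice made after seeing the data. In the main fits 67.8% of all genes passed over regions and 53.7% for cerebellum against cortex. For cortex against bulb 44.3% passed and for hippocampus against bulb 40.9%. The shares under these other settings are not given here, so these member counts are a description. Genes for cortex against hippocampus rose from 2257 to 3396 with the block. Equal numbers across wild-type regions correlated at 0.060 to 0.513, so the block rests there, in the cortex and in the olfactory bulb on a shared number only.

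Leaving out 1 library gave 342 to 553 genes in the mean and 0 to 21 for the difference between regions. It gave 0 to 4 in the cortex (0 to 1 member) and 0 to 42 in the hippocampus. For hippocampus against bulb it gave 1 to 4 members, where 5611 to 7229 of all genes passed. Cry1 ran from -0.070 to 0.074 in the cortex and from -0.19 to 0.12 in the hippocampus, and Per3 from -0.51 to 0.027 in the cortex. The cause of these shifts was not tested.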
